A study of Arabidopsis thaliana and Zea mays with 36 samples.

Results

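The circular RNAs (circRNAs) of Arabidopsis thaliana leaves were compared between the drought level DT2, the lowest-numbered of 4 drought levels, and the well-watered group (WW). All 792 circRNAs with a value above 0 in either group were taken, out of 1354 in the deposited Arabidopsis table. Of these, 264 were listed at DT2 only, 248 in both groups and 280 in WW only. The DT2 group held Col-0 plants whose pots were rationed to a fixed soil moisture, and the WW group held Col-0 plants that were kept watered. Both groups were rosette leaves with no transgene or mutation named, in 2 libraries per group, with leaves of 4 plants pooled per RNA sample and treatment started 21 days after planting. The sources used here do not give the soil moisture of DT2. CircRNA libraries came from RNA digested with RNase R, and the same RNA samples, undigested, gave linear RNA libraries; both were read at 150 bp paired-end. The whole series holds 36 samples, with maize and the further levels DT3, DT4 and DT5.

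CircRNAs form when a splice donor is joined back to an acceptor upstream of it, so that an exon or a group of exons closes into a ring without free ends. RNase R digests linear RNA from its 3' end and leaves rings largely intact, and a read across the back-splice junction is what marks a circRNA. In plants circRNAs arise mainly from exons of protein-coding genes, and junctions are also reported from the plastid genome, whose psbA gene encodes the rapidly turned over D1 protein of photosystem II.

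Values are a signal that the authors scaled per library. In each of the 10 Arabidopsis libraries all values were whole multiples of 1 step, and the smallest was 2 steps. A step is called a read below, which no source states. The 2 DT2 libraries held 8483 and 7229 reads, and the 2 WW libraries 7937 and 6549. Both libraries of a group were at 0 together in 4048 cases over the 5 groups, and 1 circRNA was at 0 in a single library. A value of 0 therefore records that a group does not list a circRNA, and it is not a measured absence. In the linear libraries, 5 leaf marker genes summed to 38241 and 36374 TPM at DT2 and to 41077 and 42609 TPM in WW. The 4 root markers summed to at most 0.33 TPM, the 3 flower markers to at most 2.39 TPM and the 3 seed markers to at most 0.11 TPM in these 4 libraries.

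DT2 and WW leaves listed nearly equal numbers of circRNAs, and about 1 in 2 circRNAs of each list was in the other. The DT2 list held 512 circRNAs and the WW list 528, and the shared 248 were 48.4% of the DT2 list and 47.0% of the WW list. Between later levels, 264 circRNAs were common to DT4 and DT3, which is 44.7% of the DT4 list and 53.7% of the DT3 list, and 282 to DT5 and DT4, which is 47.1% of the DT5 list and 47.7% of the DT4 list. In bulk leaves fewer cells of a type and less RNA per cell cannot be told apart. These counts were not tested, since listing is set per group and gives 1 value a group.

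Exonic circRNAs of nuclear genes made up most of each class. They numbered 205 of the 264 circRNAs listed at DT2 only, 200 of the 248 listed in both groups and 218 of the 280 listed in WW only. Intergenic circRNAs of the nuclear chromosomes numbered 15 at DT2 only, 29 in both groups and 11 in WW only. Plastid circRNAs numbered 39 at DT2 only, 15 in both groups and 43 in WW only, which is 14.8%, 6.05% and 15.4% of the classes. The 4 mitochondrial circRNAs were split evenly between the DT2-only class and the class listed in both. Median lengths were 462.5 bp at DT2 only, 450.0 bp in both groups and 438.5 bp in WW only. CircRNAs over 3000 bp numbered 11 of 792 (1.39%), with 4 at DT2 only, 0 in both groups and 7 in WW only. Of all 792 circRNAs 31.3% were listed in both groups, and with counts this small nothing is read from the split.

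CircRNAs listed in 1 group had a lower median abundance than those listed in both. The median was 8 reads summed over the 2 DT2 libraries for the DT2-only class and 8 reads over the 2 WW libraries for the WW-only class. CircRNAs listed in both had medians of 14 reads at DT2 and 15 in WW. Of the DT2-only circRNAs 178, or 67.4%, had at most 10 reads in the group, and of the WW-only circRNAs 198, or 70.7%. With 20 or more reads required in a group for it to count, 183 circRNAs remained, of which 54 reached that number at DT2 only, 70 in both groups and 59 in WW only. Of the 54, 39 were listed at 0 in WW, and of the 59, 35 were listed at 0 at DT2.

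**Figure D1:**
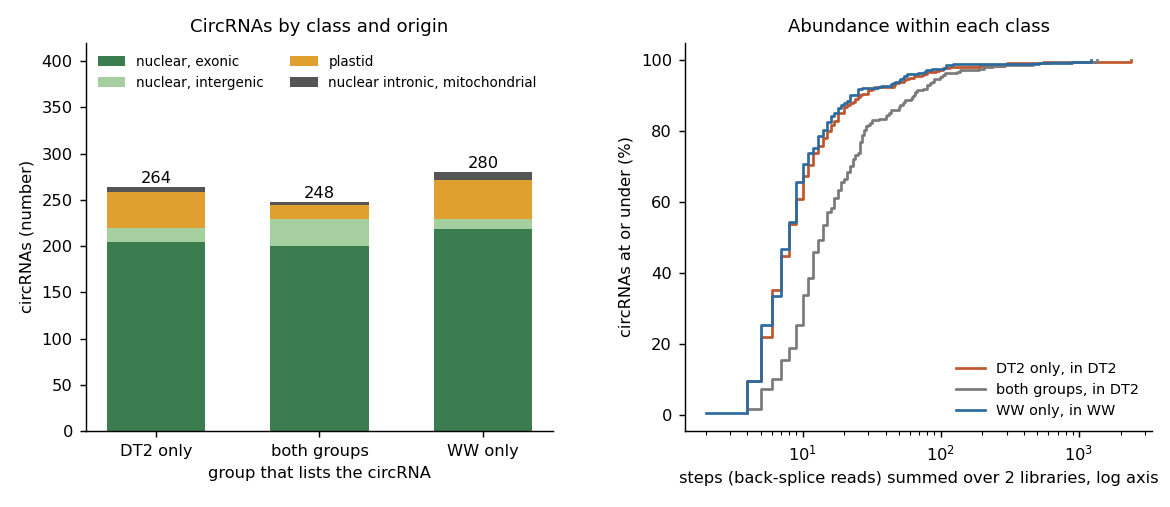
Left, the number of circRNAs in each class (listed at DT2 only, in both groups, in WW only) by origin; 264, 248 and 280 circRNAs. Right, the cumulative percentage of circRNAs of each class against reads summed over the 2 libraries of the named group on a log axis; the curves of the 2 classes listed once lie to the left of the class listed in both.

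None of the 248 circRNAs listed in both groups passed the test of a difference between DT2 and WW. The 264 circRNAs listed at DT2 only and the 280 in WW only could not be tested, so the result does not speak for those. In limma on log2 signal with Benjamini-Hochberg adjustment over these 248, 0 were called at an adjusted p under 0.05, a share of 0.0%, and 13 (5.24%) had an unadjusted p under 0.05. Of those 13, 5 were higher and 8 lower at DT2, and the smallest adjusted p was 0.715. The median log2 difference, DT2 minus WW, was -0.13, and the range was -1.45 to 1.90. In this fit the standard error of each circRNA is drawn toward a spread shared over all circRNAs tested, whatever their abundance. An SE given here is therefore not the spread of that circRNA's own libraries alone. The median standard error was 0.61. For a typical circRNA the unadjusted 95% interval of the difference thus reached 1.23 log2 units to either side. A call after adjustment asked for more than that width. AT1G45474_C3, with the highest difference of 1.90, was not called (limma unadjusted p = 0.0042, adjusted p = 0.715). Differences within the width, and some beyond it, were not detectable here. The median absolute log2 difference was 0.47 between the group means, against 0.58 between the 2 DT2 libraries and 0.52 between the 2 WW libraries; means of 2 libraries vary less than single libraries by construction. As a description over the 248, Spearman's rho was 0.77 between group means, 0.67 between the DT2 libraries and 0.72 between the WW libraries.

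The most abundant circRNA listed in both was AT5G04090_C1, an exonic circRNA of a gene with no symbol on chromosome 5 (1106879 to 1107381, TAIR10 named in the submitters' notes). Its signal was 9742 and 9327 in the DT2 libraries, against 10215 and 8182 in the WW libraries, with a log2 difference of 0.06 ± 0.57 (SE, n = 2 each; limma adjusted p = 0.98). The DT2 values lay inside the span of the WW values.

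AtciR28 and AtciR55 are intergenic circRNAs of chromosome 2 that share their end at 4486252 and start at 4485015 and 4485096. AtciR28 had 3330 and 3296 at DT2, against 4115 and 3500 in WW. AtciR55 had 1541 and 1404 at DT2, against 1786 and 1842 in WW. In both circRNAs every DT2 library was lower than every WW library. The log2 differences of -0.20 ± 0.57 and -0.30 ± 0.58 did not pass the test (limma adjusted p = 0.97 and 0.94, n = 2 each). They did not pass either with a mean-variance trend, which lets the shared spread vary with abundance (limma adjusted p = 0.89 and 0.87). AtciR19 and AtciR141 are intergenic neighbours on chromosome 1 (12381927 to 12382805 and 12383203 to 12384469). AtciR19 had 3123 and 5705 at DT2, against 2914 and 2103 in WW, and AtciR141 had 1830.01 and 2261 at DT2, against 1900.1 and 1397 in WW. Their log2 differences of 0.77 ± 0.58 and 0.32 ± 0.57 did not pass the test (limma adjusted p = 0.79 and 0.94, n = 2 each), and the AtciR141 groups overlapped.

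**Figure D2:**
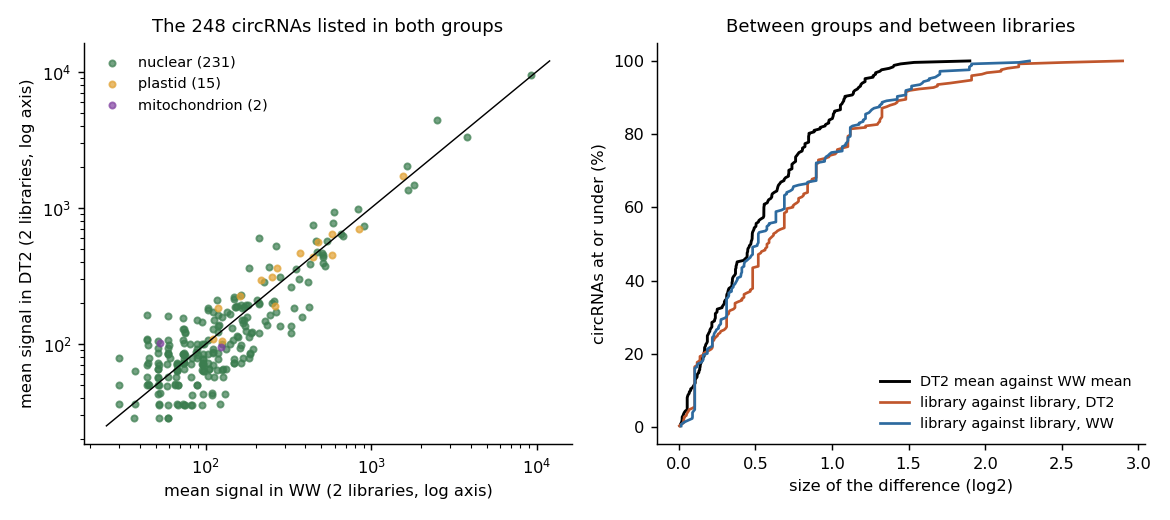
Left, mean signal at DT2 (vertical) against WW (horizontal) for the 248 circRNAs listed in both groups, each the mean of 2 libraries on log axes, coloured by genome, with the line of equal signal; points scatter around the line over the whole range. Right, the cumulative percentage of these circRNAs against the size of the log2 difference, between the group means (black) and between the 2 libraries of DT2 and of WW; the medians are 0.47, 0.58 and 0.52.

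Among abundant circRNAs listed at DT2 only, plastid ones led. AtciR51, annotated as intergenic and spanning plastid bases 403 to 37035, had the highest signal of the class, 22112 and 11469.7 at DT2. It was listed at 0 in WW and at DT3, DT4 and DT5. The next ones were all assigned to psbA (ATCG00020). ATCG00020_C66 had 4018 and 3784 at DT2, against 0 in WW, and was listed again at DT3 with 4269 and 3987. ATCG00020_C55 had 2931 and 1315 at DT2, against 0 in WW, and was listed again at DT4 with 2699 and 1180.5. ATCG00020_C105 had 2752 and 1375 at DT2, against 0 in WW, and was the one of these 5 that was listed at every later level. ATCG00020_C87 had 1459 and 1242 at DT2, against 0 in WW, and appeared again at DT4 with 1049 and 955. No fold can be given where a group is listed at 0.

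Of the 5 most abundant circRNAs of the WW-only class 3 were plastid and 2 nuclear. ATCG00020_C100 had no listing at DT2, against 10301 and 7598 in WW, and was listed again at DT4 with 8415 and 5769.85. AtciR108, spanning plastid bases 403 to 77454, had no listing at DT2 or any later drought level, against 5415 and 7829 in WW. AtciR108 and AtciR51 start at the same base, as do 20 of the 97 plastid circRNAs. ATCG00020_C65 had no listing at DT2, against 1029 and 783 in WW. The more abundant nuclear one was AT4G07390_C1, an exonic circRNA of a chromosome 4 gene with no symbol (4196362 to 4197112). It was listed at 0 in both DT2 libraries, against 4157 and 3362 in WW, and had 5957 and 5421 at DT3, 5976 and 6194 at DT4 and 6729.8 and 4751 at DT5. DT2 was thus the single Arabidopsis group that did not list it. The linear RNA of AT4G07390 was 37.5 and 34.4 TPM at DT2, against 26.0 and 27.4 TPM in WW, and its log2 difference of 0.42 ± 0.10 did not pass the test (limma adjusted p = 0.084, n = 2 each).

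A few circRNAs listed once had a near copy listed in the other group. AtciR117, the other nuclear member of those 5 and an intergenic circRNA of chromosome 4 listed at 0 at DT2, against 971 and 645 in WW, starts 5 bases from AtciR101 and ends at the same base. AtciR101 was listed in both groups, with 1307 and 1404 at DT2, against 1886 and 1458 in WW. ATCG00020_C65 lies within 7 bases of ATCG00020_C84, which was listed in both groups, and AtciR83 of the WW-only class within 4 bases of AtciR19. Of the DT2-only class, 2 of 223 nuclear and 2 of 39 plastid circRNAs (0.897% and 5.13%) had a near copy in the WW list. Both ends then lay within 10 bases on the same strand. Among the WW-only class this held for 3 of 237 nuclear and 2 of 43 plastid circRNAs (1.27% and 4.65%) against the DT2 list.

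**Figure D3:**
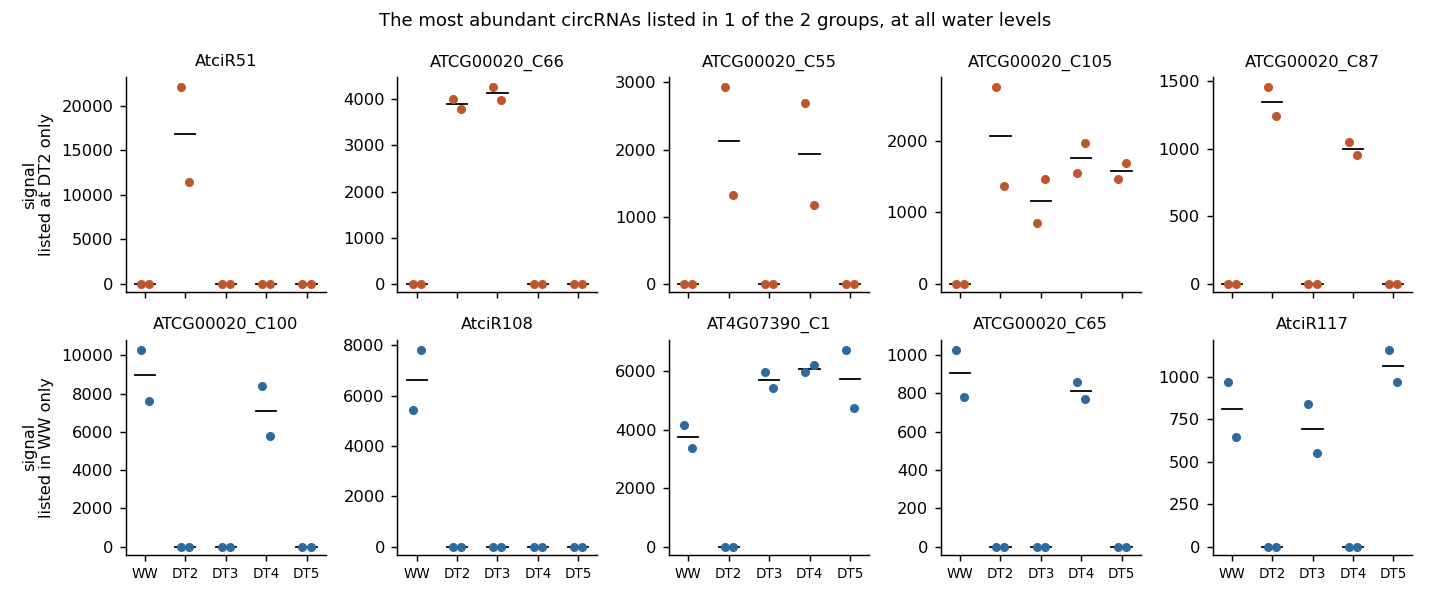
Signal of the 5 most abundant circRNAs listed at DT2 only (upper row) and in WW only (lower row) in WW, DT2, DT3, DT4 and DT5, 1 point per library and the mean as a line; each panel has its own scale. AtciR51 and AtciR108 are above 0 at 1 level each, and AT4G07390_C1 is at 0 at DT2 alone.

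The psbA gene gave 56 circRNAs, more than any other host. Of these, 22 were listed at DT2 only, 11 in both groups and 23 in WW only. Their median length was 431 bp and they ran from 137 to 984 bp, and 34 are deposited on the plus strand and 22 on the minus strand; no source used here says whether the libraries keep strand. Most psbA circRNAs were listed in 1 group, as were most of all 792 circRNAs (33.3% at DT2 only and 35.4% in WW only). The psbA sum differed by less than the spread between libraries. Summed psbA signal was 23157 and 16436 at DT2, against 22316 and 17545 in WW, with means of 19797 ± 4753 and 19931 ± 3373 (SD, n = 2 each; exact permutation test, two-sided, p = 1.0). The most abundant psbA circRNA listed in both, ATCG00020_C86, had 1582 and 1833 at DT2, against 1614 and 1520 in WW.

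Many plastid circRNAs listed once shared a junction end with the other group. Among plastid circRNAs, 34 of 39 of the DT2-only class shared an exact end with a circRNA of the WW list on the same strand, and 31 of 43 of the WW-only class with one of the DT2 list. Among nuclear circRNAs, 35 of 223 of the DT2-only class and 27 of 237 of the WW-only class did so. Of all 97 plastid circRNAs, 83 lay within plastid bases 300 to 1600, where psbA circRNAs sit, and overlapping circRNAs there are not independent members. Linear psbA was 171 and 19.4 TPM at DT2, against 27.0 and 23.8 TPM in WW, so that 1 DT2 library stood apart. Its part in the circRNA values was not tested, since numbers of circRNA and linear libraries are not matched.

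The summed signal of all circRNAs did not differ beyond the spread. It was 116722 and 106849 at DT2, against 113394 and 100529 in WW (exact permutation test, two-sided, p = 0.667; the smallest p that 2 against 2 libraries allow is 0.333). The class listed in both summed to 61512 ± 3163 at DT2 and 61244 ± 7723 in WW (SD, n = 2 each; exact p = 1.0). DT2-only circRNAs carried 49.2% and 40.3% of the signal of the DT2 libraries, and WW-only circRNAs 41.2% and 44.5% of that of the WW libraries. Plastid circRNAs summed to 50607 and 32162 at DT2, against 31516 and 29350 in WW (exact p = 0.333). AtciR51 alone held 22112 and 11469.7 of these DT2 sums, and AtciR108 alone 5415 and 7829 of the WW sums. Nuclear circRNAs summed to 65798 and 74080 at DT2, against 81663 and 71041 in WW (exact p = 0.667). AtciR51 and AtciR108 weighed on the total, since without both the mean was 94995 at DT2 and 100339 in WW.

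The later drought levels were not used in the split into classes. Of the class listed in both, 68.1% were listed at DT3, 69.0% at DT4 and 68.1% at DT5. Of the DT2-only class, 33.0%, 34.8% and 33.7% were listed at these levels, and of the WW-only class 23.6%, 31.4% and 24.3%. As a base, DT3 listed 256 of the 512 circRNAs of the whole DT2 list. Of the 528 circRNAs of the whole WW list, 235 (44.5%) were listed at DT3 and 237 (44.9%) at DT5. All 3 later levels listed 36 of 264 DT2-only circRNAs, 106 of 248 shared circRNAs and 19 of 280 WW-only circRNAs. None of the 3 listed 113 of the DT2-only, 25 of the shared and 145 of the WW-only circRNAs. The classes differ in abundance, as given above, and its part in these shares was not tested. No share over all 792 circRNAs was computed for the later levels, so the class figures are set against each other only.

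The exonic and intronic circRNAs came from 539 host genes, of which 459 gave 1 circRNA and 80 gave 2 or more. Of the hosts, 159 had circRNAs of the DT2-only class alone, 177 had at least 1 listed in both groups, 189 had the WW-only class alone, and 14 had circRNAs of both one-group classes and none shared. At the level of hosts 350 were listed at DT2 and 380 in WW, with 191 in both. After psbA, the hosts with most circRNAs were AT1G15405 and GPRI1 with 5 each, and LHCA5 and PHS2 with 4 each.

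GPRI1 (AT2G20570, also called GLK1), a transcription factor for chloroplast development, had 4 circRNAs listed at DT2 only and 1 in both. The shared one, AT2G20570_C1, had 41.3 and 88.7 at DT2, against 100.01 and 107 in WW. All 5 end at the same base, 8857575. The highest of the 4 listed at DT2 only, AT2G20570_C4, had 206 and 73.9 at DT2, against 0 in WW. Summed over its circRNAs, GPRI1 had 385 and 443 at DT2, against 100.01 and 107 in WW. Its linear RNA was 224 and 206 TPM at DT2, against 319 and 273 TPM in WW, a log2 difference of -0.46 ± 0.14 that did not pass the test (limma adjusted p = 0.13, n = 2 each).

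AT1G15405, annotated as a noncoding RNA in RefSeq (TAIR10.1), had 1 circRNA at DT2 only, 1 shared and 3 in WW only. The shared AT1G15405_C5 had 592 and 902 at DT2, against 300.02 and 583 in WW, and it shares its start at 5297892 with 3 of the others. LHCA5 (AT1G45474), a minor antenna protein of photosystem I, had 4 circRNAs, all listed in both groups, that lay on both sides of 0. AT1G45474_C3 had 206 and 118 at DT2, against 57.1 and 30.7 in WW, the highest log2 difference of all 248 at 1.90 ± 0.62 (limma adjusted p = 0.715, n = 2 each). AT1G45474_C4, the most abundant of the 4, had 495 and 251 at DT2, against 600.04 and 445 in WW, a log2 difference of -0.55 ± 0.62. PHS2 (AT3G46970), the cytosolic glucan phosphorylase of starch breakdown, had 4 shared circRNAs with log2 differences of -1.22 to 0.17, of which none passed the test.

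Several hosts had sums over their circRNAs that lay apart between the groups because different circRNAs were listed. They were picked after their values were seen, and are among the hosts with the lowest p in a limma fit of such sums over 191 hosts. Since 0 stands for unlisted, no fold or p is given here for the sums. AT3G15380, a choline transporter-like protein also called CHER1, had 41.3 and 29.6 at DT2, against 300.02 and 461 in WW. The DT2 signal came wholly from AT3G15380_C1 and the WW signal wholly from AT3G15380_C2, so each group listed a different circRNA of this host. Its linear RNA was 19.0 and 20.4 TPM at DT2, against 17.0 and 15.4 TPM in WW.

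P5CS1 (AT2G39800), the enzyme that starts proline synthesis from glutamate, had 248 and 177 at DT2, against 57.1 and 46.1 in WW. The shared P5CS1 circRNA, AT2G39800_C3, had 82.6 and 29.6 at DT2, against 57.1 and 46.1 in WW, and the rest of the DT2 sum came from 2 circRNAs listed at DT2 only. ATHB-15 (AT1G52150), a transcription factor of vascular and meristem patterning, had 151 and 88.7 at DT2, against 500.03 and 522 in WW, and CP5 (AT1G64720) had 165 and 222 at DT2, against 686 and 768 in WW. AT1G52150_C2 of ATHB-15, with 357 and 292 in WW, and AT1G64720_C2 of CP5, with 429 and 599 in WW, were both listed at 0 at DT2 and made up most of the WW sums. Linear P5CS1 was 149 and 268 TPM at DT2, against 213 and 202 TPM in WW.

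**Figure D4:**
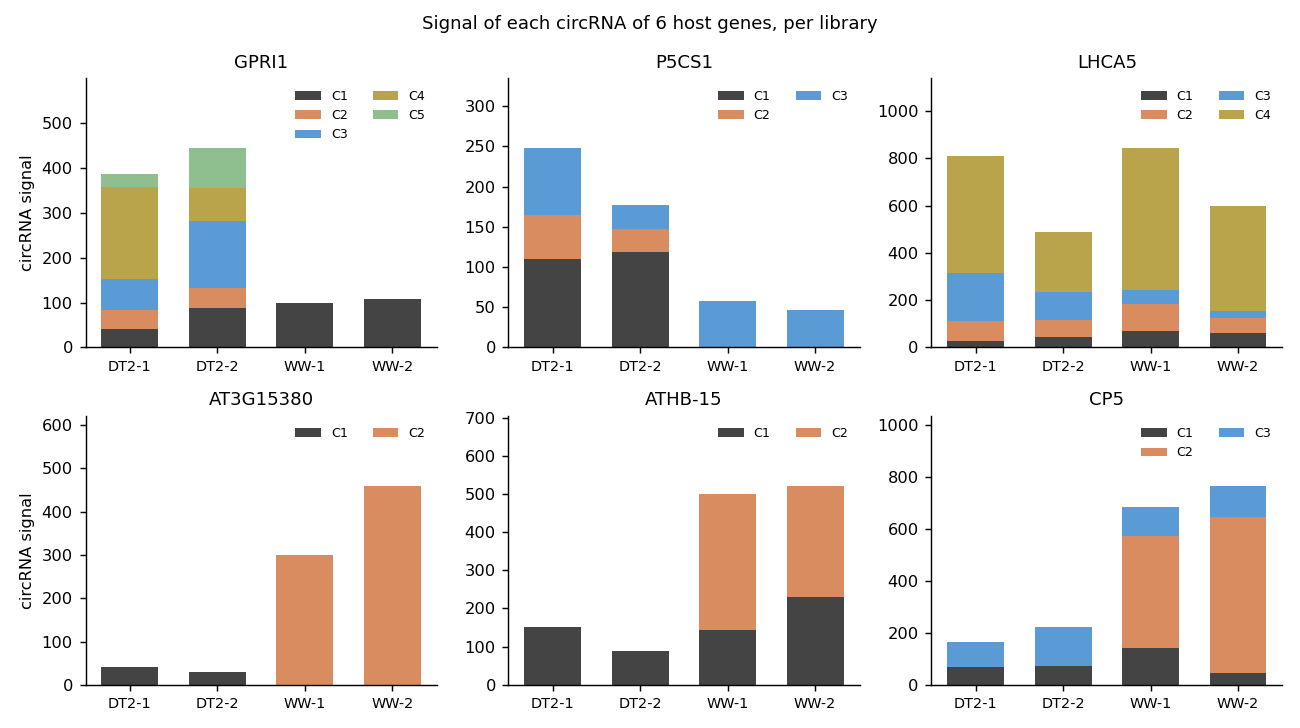
Stacked circRNA signal of 6 host genes in the 2 DT2 and the 2 WW libraries, with 1 colour for each circRNA of the host; each panel has its own scale. GPRI1 and P5CS1 have circRNAs seen in the DT2 bars alone, AT3G15380 has a different circRNA in each group, and LHCA5 shows the same 4 circRNAs in every library.

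Genes of photosynthesis and photorespiration were hosts of 21 circRNAs, 9 listed at DT2 only, 8 in both groups and 4 in WW only. Of all 792 circRNAs 33.3% were listed at DT2 only, 31.3% in both groups and 35.4% in WW only, and with counts this small nothing is read from the difference. Light-harvesting proteins accounted for 7, from LHCA1, LHCA4, LHCA5 and LHCB3, of which 6 were shared and the LHCA1 circRNA was listed at DT2 only, with 82.6 and 29.6. Carbon fixation accounted for 7, of which 5 were listed at DT2 only, a count too small to set against the 33.3% of all circRNAs. These 5 came from Rubisco activase (RCA), the carbonic anhydrases CA1 and CA2 and transketolase (TKL1), each at 27.5 to 68.8 per library and 0 in WW. CA2 also had AT5G14740_C3, listed at 0 at DT2, against 85.7 and 107 in WW. Photorespiration accounted for 6, with GOX1 shared, GOX2 and GGT1 at DT2 only, and AGT with 1 and HPR1 with 2 circRNAs in WW only. No shared circRNA of these hosts passed the test. RS40, an SR protein of splicing, had 110.1 and 59.1 at DT2, against 200.01 and 169 in WW, a log2 difference of -1.19 ± 0.59 (limma adjusted p = 0.715, n = 2 each).

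Few host genes differed in linear RNA at DT2. Of 526 hosts tested, 6 were higher and 2 lower (1.52% called), while of all 18938 genes tested 278 were higher and 78 lower, which is 1.47% and 0.412% (1.88% in all; limma with trend on log2(TPM + 1), Benjamini-Hochberg over all genes). The hosts' share was thus close to the share of all genes. The median host lay at a log2 difference of 0.13 and the median of all genes at 0.12. When libraries were rescaled by trimmed means the median of all genes was 0.0053, and 2 hosts were higher and 4 lower. Without the first or the second DT2 library 1 and 2 hosts were called, and without the first or the second WW library 1 and 3. In a fit of the 4 libraries alone no host was called, with 138 hosts at an unadjusted p under 0.05. By class 1 of 156 DT2-only hosts, 5 of 171 shared hosts and 2 of 186 WW-only hosts were called. The median host had 37.3 TPM at DT2 and 33.0 TPM in WW, against 14.2 TPM at DT2 and 12.6 TPM in WW for all genes tested.

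The host with the largest rise was CCL (AT3G26740), known for an unstable, clock-controlled transcript. Its linear RNA was 649 and 685 TPM at DT2, against 272 and 278 TPM in WW, a log2 difference of 1.27 ± 0.11 (limma adjusted p = 0.0016, n = 2 each). Its circRNA, AT3G26740_C1, was listed at DT2 only, with 68.8 and 59.1. UPS2 (AT2G03530), a ureide permease, had 52.0 and 50.5 TPM at DT2, against 20.5 and 27.8 TPM in WW, a log2 difference of 1.07 ± 0.14 (limma adjusted p = 0.0077, n = 2 each). Its shared circRNA AT2G03530_C1 had 138 and 177 at DT2, against 429 and 338 in WW, a log2 difference of -1.28 ± 0.61 that did not pass the test (limma adjusted p = 0.715, n = 2 each). The linear and circular values of UPS2 thus lay on opposite sides, with no overlap of groups in either.

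The other hosts with a shared circRNA and a called difference were AT4G14270, AT1G61240 and AT1G33970, higher at DT2 with log2 differences of 0.81, 0.63 and 0.60, and DHS1 (AT4G39980), lower. DHS1, which makes the first intermediate of the shikimate pathway, had 60.2 and 54.2 TPM at DT2, against 105 and 79.5 TPM in WW, a log2 difference of -0.67 ± 0.13 (limma adjusted p = 0.038, n = 2 each). In the WW-only class, AT5G19850 fell by 0.68 on the log2 scale and ML5 (AT1G29400), a Mei2-like RNA-binding protein, rose by 0.55. The circRNA of ML5, AT1G29400_C1, is the one member above 0 in a single library, with 28.6 in 1 WW library. Under rescaling UPS2, CCL, DHS1 and AT5G19850 were still called, and AT4G14270, AT1G61240, AT1G33970 and ML5 were not, with adjusted p of 0.076 to 0.10. Rescaling was 1 of several settings, and in the 4 libraries alone none of the 8 was called. DHS1 was also not called without the filter of 1 TPM in 2 libraries (limma adjusted p = 0.066).

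**Figure D5:**
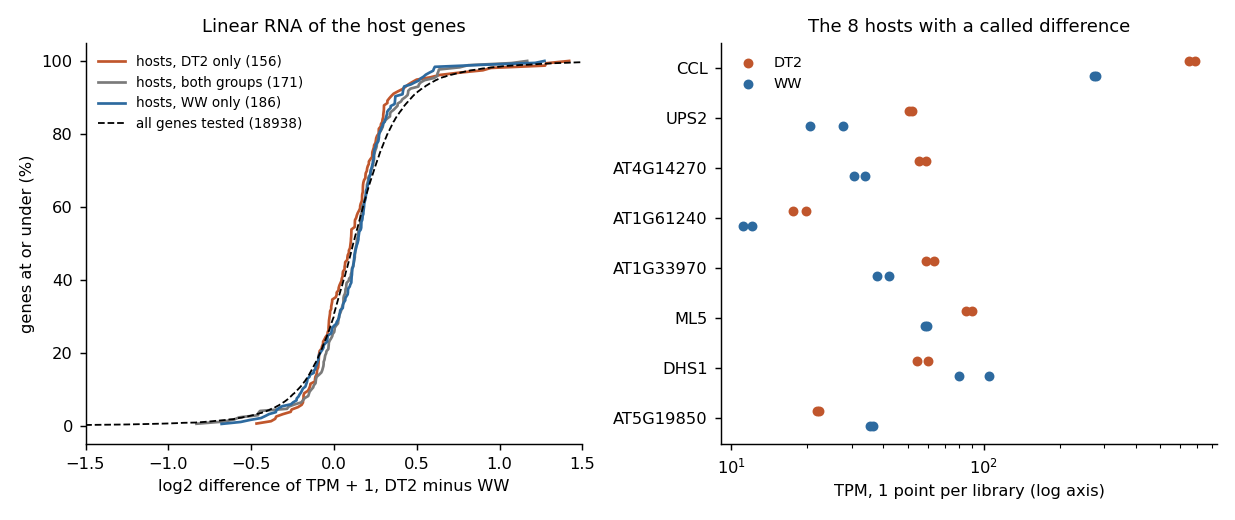
Left, the cumulative percentage of host genes of each class, and of all 18938 genes tested (dashed), against the log2 difference of TPM + 1, DT2 minus WW; the curves lie close together. Right, TPM of the 8 hosts with a called difference, 1 point per library on a log axis, DT2 above WW; 6 hosts are higher and 2 lower at DT2.

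No gene of the drought signalling lists was a host of these circRNAs. Of all 18938 genes tested 526 were hosts, and with lists of 9 to 25 genes nothing is read from this. Some genes of the lists rose in linear RNA in the fit of 10 libraries, where 1.47% of all genes were higher. No gene was called in the 4 libraries alone. Of 24 abscisic acid (ABA) signalling genes tested 2 rose, SNRK2.2 and SNRK2.3, the kinases that ABA releases. Of 9 ABA synthesis and breakdown genes 2 rose, and both, CYP707A2 and CYP707A3, encode enzymes that break ABA down. CYP707A3 had 60.8 and 71.3 TPM at DT2, against 4.84 and 12.9 TPM in WW, a log2 difference of 2.89 ± 0.33 (limma adjusted p = 0.0044, n = 2 each). Of 18 dehydration and LEA genes 1 rose, ERD15, while the median of that list was -0.02. When libraries were rescaled by trimmed means, 1 gene of that list was called higher and 1 lower. Of 10 clock genes none was called. No gene of the light-harvesting (20 tested), photosystem (25), carbon fixation (19) or photorespiration (14) lists was called in either direction. The median log2 differences of these lists were -0.15, -0.12, -0.19 and -0.15, all below the 0.12 of all genes. This shift of the lists was not tested. As a description over 207 shared circRNAs with a tested host, Spearman's rho was 0.13 between the log2 difference of the circRNA and that of its host, which share no library.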

How the data were processed

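Back-splice values were read as deposited: a signal per circRNA that the authors scaled per library, with location, length, type and host gene. For linear RNA the authors gave TPM of each transcript, per the file headers; 48359 transcripts were summed to 27655 genes. Per the submitters' processing notes BWA, edgeR, RSEM and the build TAIR10 were used, with no version or role given. The linear header has 1 cell more than its rows, so its unit cell was taken for a caption. The lengths in bp are the authors' deposited values.

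The smallest step of a library, taken as 1 read, implied 65145553 to 72677075 reads in the 4 libraries if the scale is per 1000000000 reads, which no source states. Multiples were whole within 0.02.

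CircRNAs above 0 in all 4 libraries were tested in limma 3.58.1 (R 4.3.3, two-sided) on log2 signal over all 10 Arabidopsis circRNA libraries, with groups at 0 left out as missing. Linear genes with at least 1 TPM in 2 libraries were tested in limma with a mean-variance trend on log2(TPM + 1) over the 10 linear libraries; such fold differences understate changes of low genes. Adjusted p-values are Benjamini-Hochberg, with calls under 0.05. Sums per library were compared by exact permutation. Both fits were also run on simulated data, and nothing about their power on these data is read from that. Titles name replicates by letters and tables by numbers, which were not matched. Biological replicates are stated in the series text. Values were read with pandas 2.3.3 and plotted with matplotlib 3.10.9 under Python 3.11.15.

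Symbols came from RefSeq (TAIR10.1), which matched 531 of 539 hosts and gave 310 a symbol. The circRNAs and gene lists were chosen with earlier results of these data known. CircRNAs named are the 5 most abundant of each class; hosts named are those called in the linear test, the 5 with most circRNAs and those in the gene lists; others are said to be chosen after their values were seen. No sequence is printed.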

Additional observations from a re-analysis of the deposited data

How the results depend on the processing

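The count of 0 called circRNAs among the 248 held in the 4 libraries alone, with a pseudocount, at a mean of at least 5 reads, after median centring, with a mean-variance trend (added after seeing the data) and without each library in turn (range 0 to 0). It held at 0 under the replicate block too. Keeping zeros with a pseudocount gave 570 calls over 792 circRNAs, 274 higher and 296 lower; here a group listed at 0 counts as a change. Summing per host (added after seeing the data) gave 1 call of 191, AT3G15380, which sets different circRNAs against each other and so restates the listing; it was 0 with a replicate block or without the second DT2 library. Planned count-model tests by edgeR and DESeq2 were not run: the smallest value is 2 steps, so that the worth of 1 read was inferred rather than given by the lowest values, and the values were kept as a signal.

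Against 8 called hosts, 7 were called with a pseudocount of 0.1, 6 under the replicate block and 4 without a filter, all among the 8. With rescaling 6 were called, of which 4 were among the 8. None was called in the 4 libraries alone (0) or with the literal header (0), and 1 to 3 were called without 1 library; without the second DT2 library 1 of the 2 called was among the 8. For all genes the counts were 278 higher and 78 lower, against 160 and 132 with rescaling, 186 and 57 without a filter, 0 and 0 in the 4 libraries alone, and 0 and 0 with the literal header; without 1 library 40 to 156 genes were called, which is fewest without the second DT2 library. Fewer libraries leave fewer degrees of freedom. Same-numbered libraries did not deviate together (correlations of 0.0088 for circRNAs and -0.015 for genes). With 2 libraries a group this cannot decide whether the numbers pair them.

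Requiring at least 10 reads summed over a group left 129 circRNAs at DT2 only, 159 in both groups and 124 in WW only; without 1 library the classes held 264 to 264, 248 to 248 and 279 to 280. The log2 ratio of total signal, 0.06, turned to -0.13 without organelle circRNAs and to -0.079 without AtciR51 and AtciR108 (added after seeing the data), and ran from -0.021 to 0.15 without 1 library. AT5G04090_C1 ran from -0.10 to 0.22 and AT1G45474_C2 from -0.55 to 0.35 without 1 library. Shares at later levels moved little at 5 reads. With 6549 to 8483 reads per library, circRNAs of few reads cannot be told from unlisted ones.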

Other observations

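AT2G02570 is a further nuclear host with circRNAs on opposite sides of 0, picked after its values were seen; both circRNAs had a limma adjusted p of 0.715. AT2G02570_C3 had 82.6 and 73.9 at DT2, against 28.6 and 30.7 in WW, while AT2G02570_C2 of the same gene had 124 and 148 at DT2, against 314 and 338 in WW. The linear RNA of AT2G02570 had a log2 difference of 0.34.

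Further circRNAs with an unadjusted p under 0.05, likewise picked after their values were seen, came from SVP and SRF6. AT2G22540_C2 of SVP, a repressor of flowering, had 41.3 and 73.9 at DT2, against 114 and 138 in WW. AT1G53730_C1 of SRF6, a receptor-like kinase, had 138 and 103 at DT2, against 329 and 322 in WW. Both had a limma adjusted p of 0.715.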
